A study of Mus musculus with 8 samples.

Results

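The Trim and Rnf genes encode 2 large groups of proteins, most of them RING-finger ubiquitin ligases. Their transcripts were compared here between control and Kiaa1429-deleted mouse oocytes. Members were all protein-coding genes whose symbol is Trim or Rnf followed by a number and at most 1 letter, with Rnf8 and Rnf168 left out. The rule gave 148 genes, 68 Trim and 80 Rnf, of 21891 protein-coding genes with an exon ID in the deposited counts and of 52502 such genes of any kind. It used names and no measured value.

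RNA was taken from germinal vesicle (GV) oocytes, the large oocytes of the ovary that are arrested before the first meiotic division. Control mice had the genotype Kiaa1429F/+;Zp3-Cre, in which 1 allele is floxed, and the conditional knockout (cKO) mice were Kiaa1429F/F;Zp3-Cre, with both alleles floxed. Kiaa1429, now called Virma, encodes a subunit of the methyltransferase complex that places N6-methyladenosine (m6A) on RNA. Both groups carried Zp3-Cre, a recombinase under an oocyte promoter, were C57BL/6, were given as 20 days old in one label and 3 weeks in another, and received 5 IU of pregnant mare serum gonadotropin 48 h before oocytes of at least 70 µm were collected. No group had 2 intact alleles without Cre. Each group had 4 libraries of about 20 pooled oocytes, and since the labels do not tie libraries to animals, p-values measure the spread between libraries, which may in part be technical.

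A RING ligase holds an E2 enzyme loaded with ubiquitin next to a chosen protein, which is then marked for degradation or for a change in activity. Most Trim proteins follow the RING with B-boxes and a coiled coil and differ mainly in their C-terminal part. Rnf genes are named for the RING alone and belong to many families. Fully grown oocytes make little new RNA, so transcript levels there depend largely on storage and decay, and ubiquitin-dependent removal of maternal proteins is part of the passage from oocyte to embryo.

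Of the 148 members, 62 had enough counts to be tested (26 Trim and 36 Rnf) and 86 did not. The deposited counts cover exon IDs and came to 4247471 to 4790038 per control library and 4399190 to 5064008 per cKO library. The counting set apart reads that met more than 1 exon ID, which were 72.9% to 75.4% of all reads on, across or outside exon IDs in control and 78.8% to 80.4% in cKO libraries. Those that met no exon ID were 9.86% to 12.0% in control and 5.01% to 6.19% in cKO libraries. Levels are given as counts-per-million (CPM) of the TMM-scaled library size, in the order of replicates 1 to 4, and as mean ± SD over 4 libraries. Virma itself was at 60.99, 71.6, 57.1 and 82.0 CPM in control and 18.6, 24.2, 17.8 and 17.04 CPM in cKO oocytes (log2 fold change of -1.81, adjusted p = 1.02e-06 and SE 0.18 in edgeR), and the groups did not overlap. Summed over 10 oocyte marker genes, the level was 34562 to 46354 CPM in control and 19020.4 to 22830.3 CPM in cKO libraries, with 4 genes lower, 1 higher and none at 0. Bmp15 and Gdf9 made up 85.5% of the control sum, and without them the other 8 genes summed to 5272 to 5781 CPM in control and 5141 to 5741 in cKO. Summed cumulus and granulosa markers (16 genes) were at 241 to 417 CPM in control and 453 to 749 in cKO, with 4 higher, 3 lower and 1 at 0 in every library, and without Nr5a2 and Inha the other 14 were at 92.9 to 126 against 99.5 to 142 CPM. Immune and blood markers (8 genes) were at 0.239 to 1.55 against 5.52 to 9.46 CPM, with 5 at 0 throughout, and without C1qa at 0.239 to 1.11 against 0.850 to 1.07 CPM. Theca and stroma markers (8 genes) were at 6.21 to 8.76 against 4.43 to 5.99 and vessel markers (4 genes) at 7.75 to 13.9 against 6.59 to 13.3 CPM. The part of these other cells, and of the reads across or outside exon IDs, in the member values below was not tested. In pools of whole oocytes, fewer cells of a type and less RNA per cell cannot be told apart.

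Among the 62 tested members, 20 were higher and 14 lower in cKO oocytes at an adjusted p under 0.05 (edgeR quasi-likelihood test, Benjamini-Hochberg over all genes tested), and 28 were not called. These are 32.3% and 22.6% of the tested members. Over all 7991 protein-coding genes tested, 30.4% were higher and 23.5% lower, and over all 10673 genes of any kind 27.0% and 27.9%, so the members' shares lie near the background and say nothing particular about them. The members' median log2 fold change was 0.07, with a range of -1.95 to 2.72, beside a median of 0.10 over protein-coding genes. Scaled and tested on protein-coding genes alone, the members' split was 19 higher and 19 lower, and this scaling moved the median log2 fold change of all genes by -0.09. At a log2 fold change of at least 1 in size, 16 members were higher and 5 lower, against 16.8% and 12.3% of protein-coding genes. The control and cKO libraries did not overlap for 31 of 62 members, against 49.0% of protein-coding genes.

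Trim genes were called in 20 of 26 cases, 11 higher and 9 lower, with groups that did not overlap for 19, and their median log2 fold change was 0.20. Rnf genes were called in 14 of 36 cases, 9 higher and 5 lower, with 12 that did not overlap and a median of 0.04. The called shares were 42.3% higher and 34.6% lower for Trim and 25.0% and 13.9% for Rnf genes. Over tested protein-coding genes they were 30.4% and 23.5%, and 49.0% did not overlap. Whether the 2 name groups differ from each other or from this background was not tested. The same background stands beside the counts of the lists below, which were not tested against it either. The members together held 1.71% of all gene counts in control and 1.57% in cKO oocytes, and a few Trim genes made up much of that.

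**Figure D1:**
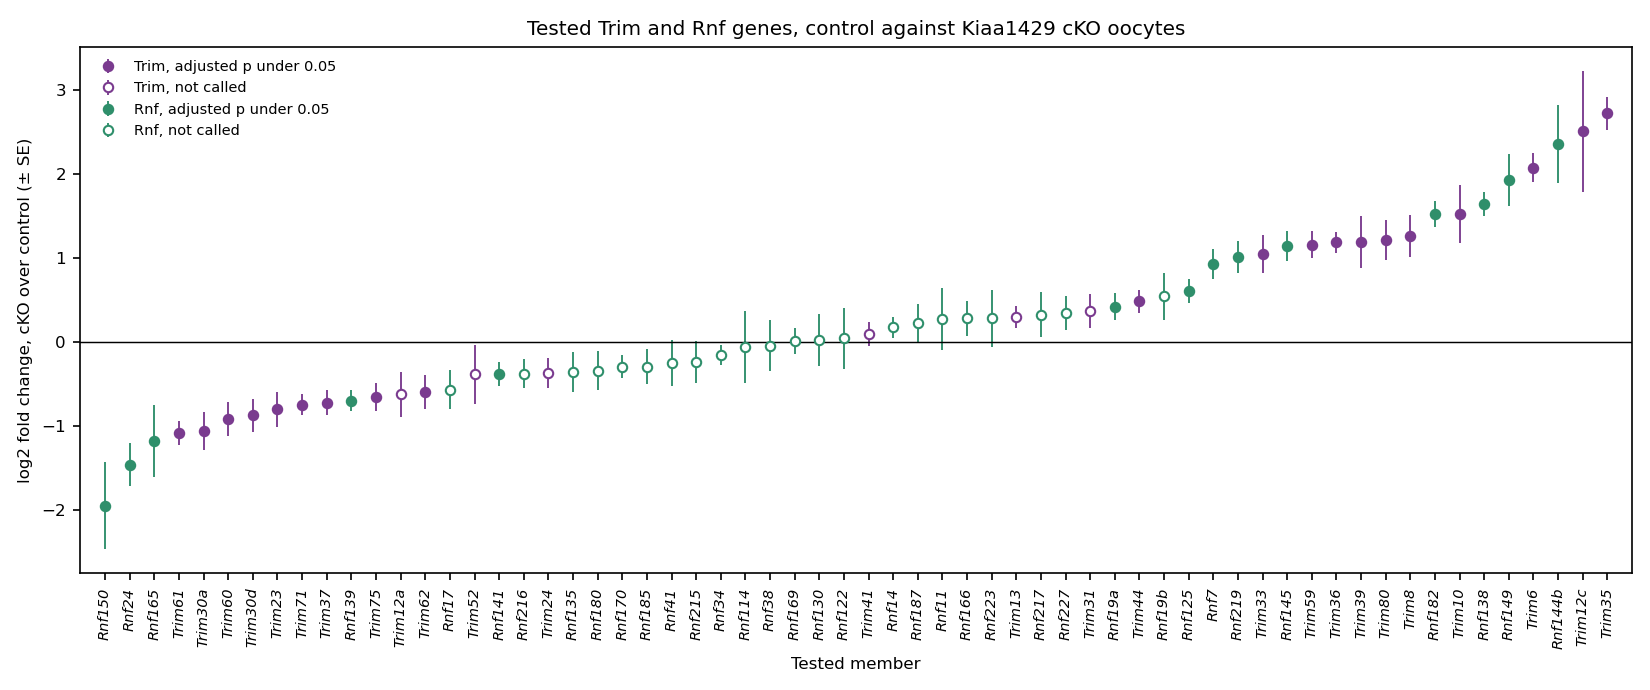
Log2 fold change of cKO over control (vertical axis, bars ± SE) for the 62 tested Trim (purple) and Rnf (green) genes in rising order, with filled points for an adjusted p under 0.05 in edgeR. The values run from -1.95 for Rnf150 to 2.72 for Trim35, with 20 filled points above and 14 below 0.

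A large part of the member counts lay on 3 neighbours on chromosome 8, Trim75, Trim60 and Trim61, little-studied Trim genes between positions 64980884 and 65018584 (mm10). They form the tested part of the list of rodent germ line and embryo clusters, in which all 3 of 3 tested genes were lower in cKO and 3 of 6 listed genes, the Trim43 copies, had too few counts. RefSeq gives Trim60 and Trim61 the same start, on the minus strand, and so the same promoter window, while Trim75 starts downstream of both. The windows are printed because these neighbours moved together. Each runs 250 bases before to 50 bases after a RefSeq start (GRCm38.p6), 5′ to 3′ on the gene's strand. Capitals mark matches to the CCAAT box, which reads ATTGG on the opposite strand, and matches to the letters TAATTG, which read CAATTA there, and matches of both kinds overlap in each window. The shared window is chr8:65018639-65018938 and the Trim75 window chr8:64987595-64987894, both on the minus strand. The shared window lies wholly before the GENCODE starts of Trim60 and Trim61, at 65018584 and 65018523.
Trim60 and Trim61: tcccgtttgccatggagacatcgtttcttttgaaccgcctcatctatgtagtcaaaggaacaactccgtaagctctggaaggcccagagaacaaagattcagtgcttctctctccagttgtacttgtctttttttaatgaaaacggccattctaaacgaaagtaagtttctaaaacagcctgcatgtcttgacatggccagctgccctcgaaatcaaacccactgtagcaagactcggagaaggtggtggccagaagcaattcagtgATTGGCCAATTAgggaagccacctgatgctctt
Trim75: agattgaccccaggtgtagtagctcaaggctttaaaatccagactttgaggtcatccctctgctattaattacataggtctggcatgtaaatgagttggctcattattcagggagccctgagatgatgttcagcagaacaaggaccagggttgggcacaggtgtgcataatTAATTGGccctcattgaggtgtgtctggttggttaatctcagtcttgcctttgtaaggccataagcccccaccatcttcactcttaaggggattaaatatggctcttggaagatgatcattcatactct

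The shared Trim60 and Trim61 window had a GC content of 46.0% and 8 CpG, and that of Trim75 44.7% and 0 CpG, beside medians of 52.7% and 7 over all 32851 mouse windows. Aligned end to end, the windows were 48.5% identical, about as alike as the shared window and that of Trim6 at 51.2%. The longest coding transcripts of Trim60 and Trim61 aligned locally over 69 bases at 100% identity, those of Trim60 and Trim75 over 134 columns at 69.4%, and those of Trim61 and Trim75 over 103 columns at 71.8%. Counts for Trim60 and Trim61 came from their separate last exons, 99.9% and 100% of them in control oocytes. Trim60 and Trim61 overlap on the same strand, and reads meeting exon IDs of both would be among the ambiguous reads.

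Trim61 had 4609, 4283, 5674 and 4767 CPM in control and 2788, 2072, 1869.5 and 2398 CPM in cKO oocytes. Every control library lay above every cKO library, and the means were 4833 ± 596 and 2282 ± 402 CPM (SD, n = 4), a log2 fold change of -1.08 (adjusted p = 1.32e-05, SE 0.14) by edgeR's quasi-likelihood test. Trim75 had 2247, 2249, 3445 and 2001 CPM in control and 1854, 1439, 1405 and 1623 in cKO oocytes. Its control replicate 3 was the highest library and the groups did not overlap, with a log2 fold change of -0.65 (adjusted p = 0.00324, SE 0.16) in edgeR. Trim60 was measured at 738, 877, 1496 and 672 CPM in control and 519.8, 473, 519 and 499 in cKO oocytes. The cKO libraries were close to each other, control replicate 3 stood above the other controls, and no cKO library reached the lowest control (log2 fold change of -0.91, adjusted p = 0.00138 and SE 0.20 in edgeR). Without control replicate 3 the Trim60 log2 fold change was -0.60, with an adjusted p of 0.000782 in edgeR. Together these 3 genes held 42.7% to 48.5% of all member counts in the control libraries and 26.8% to 31.7% in the cKO libraries. Among the oocyte markers, Bmp15, Gdf9, Nlrp5, Zp1 and Ooep were also lower in every cKO library than in every control library. Of these, Ooep was not called. Dppa3 was higher in every cKO library, with means of 2178 ± 339 CPM in control and 2889 ± 194 CPM in cKO. The groups overlapped for Zp2, Zp3, Nobox and Oosp1. Without Bmp15 and Gdf9, the other 8 summed to overlapping levels, as given above.

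Among the NHL-repeat genes, which carry an RNA-binding beta propeller, 1 of 4 could be tested. Trim71, also called Lin41, is a repressor of messenger RNAs known from stem cells and germ cells and a target of the let-7 miRNA. It had 1729, 1675, 1828 and 1344 CPM in control and 985, 1011, 955 and 980.0 CPM in cKO oocytes. Its cKO libraries lay within a narrow range below every control library, with means of 1644 ± 209.8 and 983 ± 22.8 CPM (log2 fold change of -0.74, adjusted p = 9.68e-05 and SE 0.12 in edgeR). Trim71 lies on chromosome 9, positions 114507133 to 114564369, and 27102 of its 27115 control counts came from its last exon of 6964 bases. The other NHL genes were Trim32, Trim2 and Trim3, which did not pass the filter. Trim32 had 0 counts in every library, but only 91 of its exon bases are covered by no other exon ID and could be counted.

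The Trim71 window (chr9:114564320-114564619, minus strand) is shown for contrast in base content, with 59.3% GC and 19 CpG, beside that of Trim6 (chr7:104218545-104218844, plus strand), with 47.0% GC and 8 CpG, a member that rose. Capitals mark the same words and the GC-box core GGGCGG, which reads CCGCCC on the opposite strand.
Trim71: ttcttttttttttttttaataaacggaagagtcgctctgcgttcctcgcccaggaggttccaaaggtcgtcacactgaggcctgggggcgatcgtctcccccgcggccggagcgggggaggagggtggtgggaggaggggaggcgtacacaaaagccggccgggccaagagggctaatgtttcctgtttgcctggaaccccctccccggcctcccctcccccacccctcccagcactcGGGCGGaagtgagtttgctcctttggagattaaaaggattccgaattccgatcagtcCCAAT
Trim6: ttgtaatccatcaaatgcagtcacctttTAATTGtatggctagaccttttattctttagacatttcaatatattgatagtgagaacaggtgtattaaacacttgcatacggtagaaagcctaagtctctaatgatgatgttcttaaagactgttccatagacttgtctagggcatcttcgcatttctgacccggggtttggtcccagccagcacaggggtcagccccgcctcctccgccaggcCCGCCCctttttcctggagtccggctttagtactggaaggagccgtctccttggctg

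RefSeq windows were found for 115 of the 148 members, among them 12 of the 20 higher and 11 of the 14 lower members, in which Trim60 and Trim61 count as 2 with 1 shared window. Searched on both strands, CCAAT was in 4 of the 12 and 8 of the 11, against 37.4% of all windows. The GC-box core was in 6 of the 12 and 5 of the 11 (35.7% of all windows), the TATA-box form TATAAA in 0 and 1 (13.6%), and TAATTG in 1 and 4 (8.00%). A match in a window is a description of its letters only. Trim35, the tested member with the highest fold change, had no window.

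On a scale of mean CPM per kilobase of exon that no other exon ID covers, Trim61 was at 3322 in control and 1568 in cKO, Trim13 at 1442 and 1777, Trim75 at 816 and 519, and Rnf185 at 545 and 445. On the same scale Trim60 was at 363 and 193, Rnf34 at 257 and 232, and Trim71 at 179 and 107. Trim61 was thus first in control per length and Trim13 first in cKO. The order depends on the annotation, since only uncovered bases can be counted.

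Trim13, an endoplasmic reticulum (ER) ligase of the degradation pathway for misfolded proteins, had 2552, 1881, 2292 and 2791 CPM in control and 3129, 3019, 2557 and 3021 CPM in cKO oocytes. The groups overlapped and the gene was not called (log2 fold change of 0.30, adjusted p = 0.0676 and SE 0.13 in edgeR), although leaving out control replicate 4 gave 0.37 with an adjusted p of 0.0292 and leaving out control replicate 2 gave 0.19. It belongs to a list of 18 Trim genes of membranes, GTPase function, centrosomes, nucleus and p53-linked pathways, of which 9 were tested, 5 higher and 3 lower, with a median log2 fold change of 0.48.

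Trim35, a coiled-coil ligase with a PRY-SPRY domain, showed the highest fold change of all tested members. It had 25.9, 15.3, 25.5 and 15.8 CPM in control and 137, 128, 159 and 121 CPM in cKO oocytes. The lowest cKO library was well above the highest control, with means of 20.6 ± 5.89 and 136 ± 16.4 CPM, a 6.61-fold ratio (log2 fold change of 2.72, adjusted p = 5.75e-08 and SE 0.20 in edgeR). Trim59, a ligase anchored in the ER membrane, had 238, 175, 314 and 234 CPM in control and 614, 498, 522 and 512 in cKO oocytes. Its groups did not overlap and its log2 fold change was 1.16 (adjusted p = 2.32e-05, SE 0.16) in edgeR. The other called members of this list, named after their values were seen, were Trim8, Trim39 and Trim44, with log2 fold changes of 1.26, 1.19 and 0.48, and Trim23, Trim37 and Trim62, with -0.80, -0.72 and -0.60. Trim37, a peroxisome and centrosome ligase, had 86.7 to 112 CPM in control and 52.7 to 70.7 in cKO. Trim62 was no longer called without control replicate 4 (log2 fold change of -0.47, adjusted p = 0.0660 in edgeR) or without cKO replicate 1 (-0.47, adjusted p = 0.0736).

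Among the microtubule-binding genes with a COS box, 1 of 5 was tested and it was higher. Trim36 had 97.4, 95.5, 101 and 114 CPM in control and 207, 251, 246 and 223 CPM in cKO oocytes. Every cKO library lay above every control library, with a 2.27-fold ratio of means and a log2 fold change of 1.19 (adjusted p = 2.11e-06, SE 0.13) in edgeR. Of the TIF1 family, nuclear proteins that bind chromatin, 2 of 4 were tested. Trim33 rose from 6.21, 7.18, 4.73 and 7.75 CPM to 11.7, 16.6, 14.6 and 10.9 CPM, with no overlap (log2 fold change of 1.05, adjusted p = 0.00129 and SE 0.23 in edgeR). Trim24 stood at 33.9, 39.7, 30.2 and 41.8 CPM in control and 26.6, 31.0, 32.7 and 22.5 in cKO oocytes. These overlapped and were not called (log2 fold change of -0.37, adjusted p = 0.0907 and SE 0.18 in edgeR), whereas an adjusted p of 0.0447 was reached without control replicate 3 (-0.45) and of 0.0356 on protein-coding genes only (-0.46). Of the striated muscle list none of 4 genes could be tested.

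**Figure D2:**
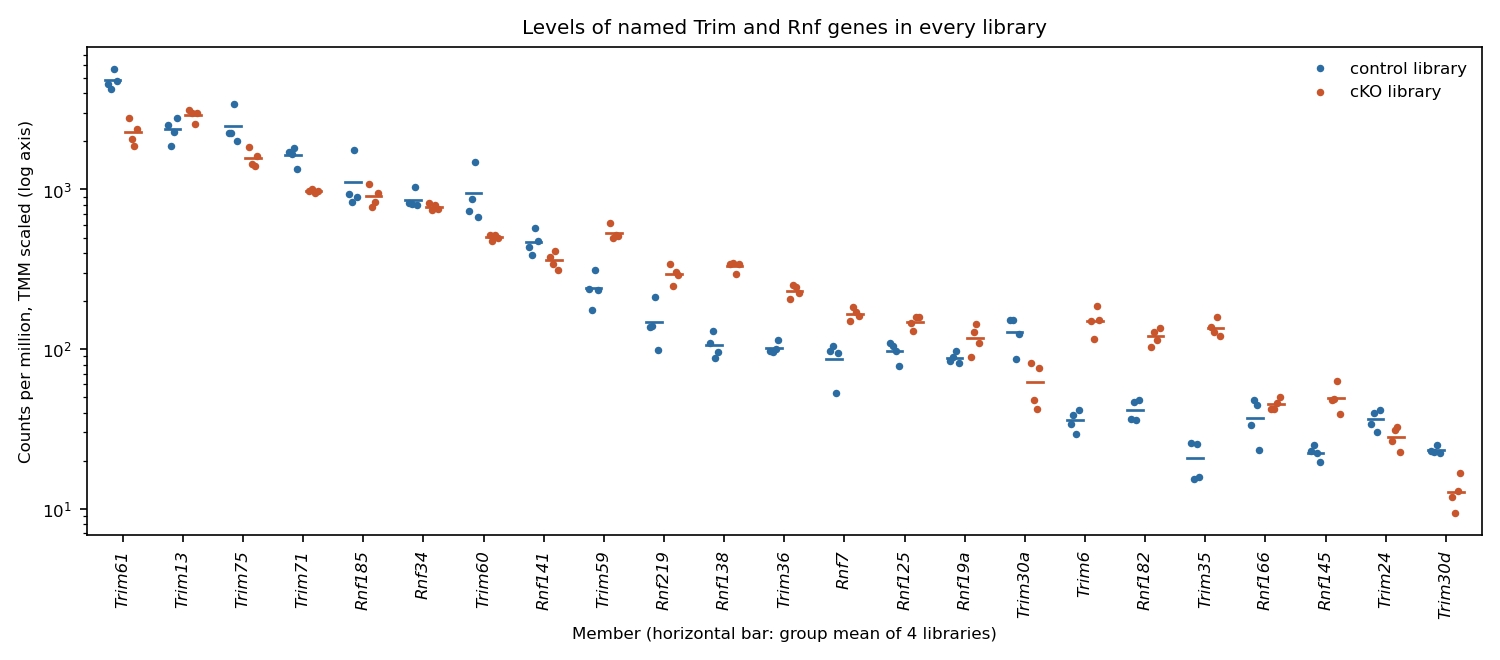
TMM-scaled CPM (log axis) in each of the 4 control (blue) and 4 cKO (red) libraries for named Trim and Rnf genes. Genes are in falling order of mean level over all 8 libraries, with horizontal bars for group means. Trim61, Trim75, Trim71 and Trim60 on the left are lower in every cKO library, and Trim6, Rnf182 and Trim35 towards the right are higher in every cKO library.

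The innate immunity list holds Trim genes that control interferon, NF-κB and retroviral restriction pathways. Of its 19 genes 6 were tested, 2 of them higher and 2 lower, with a median log2 fold change of -0.26. Most of the tested ones sit in 1 cluster on chromosome 7, between 104218793 and 104507849, which holds 10 members, 5 of them tested. Within it genes moved in opposite directions. Trim6, which makes unanchored ubiquitin chains in interferon signalling, had 33.7, 38.5, 29.2 and 41.5 CPM in control and 149.8, 115, 187 and 151 CPM in cKO oocytes. The groups were far apart, with a 4.22-fold ratio of means (log2 fold change of 2.07, adjusted p = 2.28e-07 and SE 0.17 in edgeR). Towards the other end of the cluster, Trim30a, a negative regulator of NF-κB, had 153, 152, 86.3 and 124 CPM in control and 82.2, 47.6, 41.9 and 75.6 in cKO oocytes. Every cKO library was below every control library (log2 fold change of -1.06, adjusted p = 0.00114 and SE 0.23 in edgeR). Its paralog Trim30d had 23.1, 22.7, 25.0 and 22.3 CPM in control and 11.7, 9.35, 12.9 and 16.7 in cKO oocytes, again without overlap (log2 fold change of -0.87, adjusted p = 0.00173 and SE 0.20). Trim12a was not called (log2 fold change of -0.62, adjusted p = 0.0626 and SE 0.27 in edgeR), and Trim34a and Trim34b had 0 counts in all 8 libraries.

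In each of 2 further genes of this cluster, singled out after their values were seen, 1 library stood apart. Trim12c, a close relative of Trim5, had 5.99, 5.27, 3.16 and 7.004 CPM in control and 95.7, 8.92, 6.88 and 12.0 CPM in cKO oocytes. Its cKO replicate 1 was far above all others, and the remaining cKO values overlapped the controls. The test called it higher (log2 fold change of 2.51, adjusted p = 0.00815 and SE 0.72 in edgeR), and without cKO replicate 1 the log2 fold change was 0.80 with an adjusted p of 0.0354. That library had 419 counts on the last exon (104338754 to 104341373), against 0 to 33 in the other libraries, while an internal exon (104347928 to 104348403) had 7 to 23 counts in every library and 11 in this one. With last exons left out, the log2 fold change was 0.56 with an adjusted p of 0.156. Trim30c, which did not pass the filter, had 1929 of its 1930 counts in control replicate 1, all on 1 internal coding exon (104390164 to 104390614), 1 count in control replicate 4 and 0 in the other 6 libraries.

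**Figure D3:**
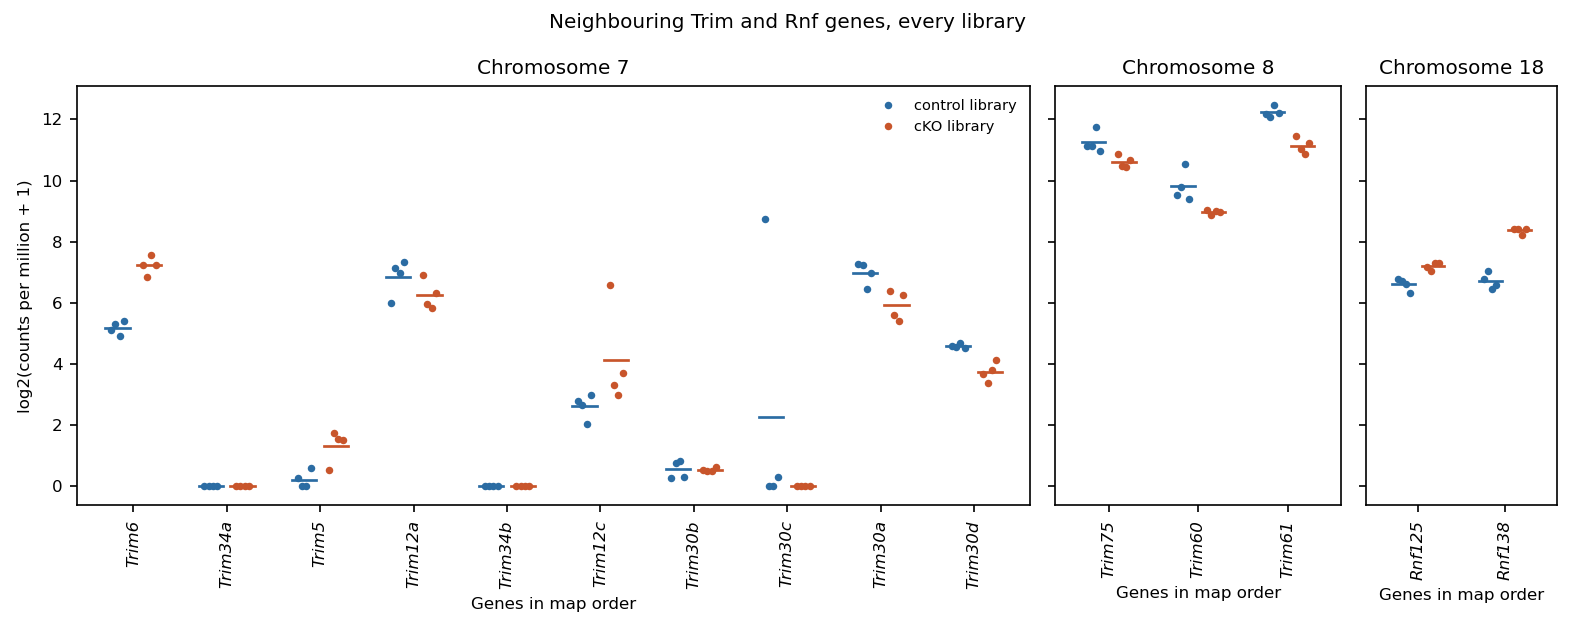
Log2 of CPM + 1 in each control (blue) and cKO (red) library for the members of the chromosome 7 cluster, the chromosome 8 group and the chromosome 18 pair, in map order, with bars for group means. On chromosome 7 Trim6 is higher and Trim30a and Trim30d are lower in cKO, single libraries stand apart for Trim12c and Trim30c, and the 3 chromosome 8 genes are all lower.

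Among 10 Rnf genes listed under histone, Polycomb, SUMO-targeted and DNA repair functions, 4 were tested and 2 were higher, with a median log2 fold change of 0.62. The list is mixed, and not every gene on it has such a function, so these numbers describe the list only. Rnf138, which acts at DNA double-strand breaks, had 109, 130.0, 87.6 and 95.3 CPM in control and 343, 344, 296 and 339 CPM in cKO oocytes. Every cKO library was more than 2 times the highest control, with means of 105 ± 18.6 and 331 ± 23.2 CPM (log2 fold change of 1.65, adjusted p = 2.91e-07 and SE 0.14 in edgeR). Rnf219, a ligase that associates with the CCR4-NOT deadenylase, the enzyme that shortens poly(A) tails, had 138, 139.6, 212 and 99.3 CPM in control and 343, 250.1, 303 and 289.7 in cKO oocytes. Control replicate 3 was its highest control and still below every cKO library (log2 fold change of 1.01, adjusted p = 0.000394 and SE 0.19 in edgeR). Rnf169 and Rnf187 were not called, and Rnf2, the catalytic ligase of Polycomb complex PRC1, had 16 control and 45 cKO counts in all and was not tested.

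The member nearest to Rnf138 on chromosome 18 is Rnf125, which marks the RNA sensor RIG-I for degradation. Rnf125 had 109, 105, 96.5 and 78.3 CPM in control and 145, 130.3, 159 and 159 CPM in cKO oocytes. The groups did not overlap (log2 fold change of 0.61, adjusted p = 0.00190 and SE 0.14 in edgeR). Rnf125 was listed with Rnf114 and Rnf166 among ligases with a zinc finger and ubiquitin-interacting motif. All 3 listed genes were tested and 1 was higher. This list need not hold the whole family, and Rnf138 was counted on the DNA repair list above. Rnf166 had 33.3, 47.6, 44.7 and 23.3 CPM in control and 42.1, 42.3, 46.2 and 50.2 in cKO oocytes, with overlap (log2 fold change of 0.28, adjusted p = 0.262 and SE 0.20 in edgeR). Rnf114 was at 1.44 to 4.73 CPM in control and 1.07 to 3.61 in cKO oocytes and was not called.

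The RING-between-RING ligases take the ubiquitin onto themselves before passing it on. Of 8 listed, 6 were tested, 2 were higher and none was lower. Rnf144b, which p53 can induce, had 0.665, 1.44, 0 and 1.25 CPM in control and 3.99, 3.19, 4.94 and 5.62 CPM in cKO oocytes. The controls were near the level of 3 counts (0.562 to 0.789 CPM over the libraries) and all cKO libraries were higher (log2 fold change of 2.36, adjusted p = 0.000543 and SE 0.46 in edgeR). Rnf19a, also known as dorfin, had 84.1, 88.6, 97.6 and 81.3 CPM in control and 89.5, 129, 144 and 109 in cKO oocytes. Its groups overlapped and its small difference was called (log2 fold change of 0.42, adjusted p = 0.0329 and SE 0.16 in edgeR). That call was lost in each of 5 fits that left out control replicate 1, 2 or 4 or cKO replicate 2 or 3, with log2 fold changes of 0.39, 0.41, 0.37, 0.39 and 0.29 and adjusted p-values of 0.0548 to 0.153, and also on protein-coding genes only (0.33, adjusted p = 0.0753).

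Of 10 transmembrane ligases with a protease-associated domain, 4 were tested, 1 higher and 1 lower. Rnf149 had 2.00, 2.87, 1.05 and 1.501 CPM in control and 8.64, 6.16, 7.74 and 6.37 in cKO oocytes, without overlap (log2 fold change of 1.93, adjusted p = 8.80e-05 and SE 0.31 in edgeR). Rnf150 had 3.33, 3.59, 3.68 and 4.25 CPM in control and 2.66, 0.212, 0.215 and 0.749 CPM in cKO oocytes. Its cKO replicate 1 was nearer the controls than the other cKO libraries, which were all under 1 CPM. The log2 fold change was -1.95 (adjusted p = 0.00491, SE 0.52) in edgeR, and -3.09 without cKO replicate 1.

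The other membrane and ER ligases numbered 15, of which 8 were tested, 2 higher and 2 lower, with a median log2 fold change of -0.29. Rnf182 had 36.6, 46.4, 35.8 and 48.0 CPM in control and 103, 128, 114 and 135 CPM in cKO oocytes. All cKO libraries were above all controls, with a 2.88-fold ratio of means (log2 fold change of 1.53, adjusted p = 1.36e-06 and SE 0.16 in edgeR). Rnf145, a sterol-responsive ligase of the ER, had 22.8, 24.9, 22.4 and 19.5 CPM in control and 47.6, 48.4, 63.2 and 39.3 in cKO oocytes. These also did not overlap (log2 fold change of 1.15, adjusted p = 7.28e-05 and SE 0.18 in edgeR). Rnf185, which works in ER-associated degradation, had 944, 835, 1774 and 897 CPM in control and 1078, 773, 837 and 945 CPM in cKO oocytes. Apart from control replicate 3 its values overlapped throughout, and it was not called (log2 fold change of -0.29, adjusted p = 0.253 and SE 0.21 in edgeR, and 0.03 without that library). The lower genes, named after their values were seen, were Rnf24 with a log2 fold change of -1.46 and the ER ligase Rnf139 with -0.70. With last exons left out, the Rnf139 value was 0.0059 (adjusted p = 0.990 in edgeR). A change in the share of Rnf139 counts on each exon was not called (adjusted p = 0.682 in diffSpliceDGE of edgeR).

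Of 17 cytosolic signalling ligases, 6 were tested, 1 higher and 1 lower. Rnf7, the RING subunit of cullin 5 ligases, had 96.7, 104, 53.4 and 94.8 CPM in control and 149, 184, 172 and 161 CPM in cKO oocytes. The groups did not overlap (log2 fold change of 0.93, adjusted p = 0.000508 and SE 0.18 in edgeR). Rnf165, a ligase of BMP signalling in motor neurons, had 4.44, 7.42, 2.89 and 3.50 CPM in control and 2.44, 0.850, 1.07 and 3.56 in cKO oocytes. With overlapping groups it was called lower (log2 fold change of -1.18, adjusted p = 0.0288 and SE 0.43 in edgeR), but not without control replicate 2 (-0.86, adjusted p = 0.114), cKO replicate 2 (-0.92, adjusted p = 0.0879) or cKO replicate 3 (-0.9999, adjusted p = 0.0814), nor by DESeq2 (-1.18, adjusted p = 0.0578). Rnf34, which binds membranes by a FYVE-like finger, had 817, 807, 1037 and 801 CPM in control and 818, 741, 804 and 758 in cKO oocytes and was not called (log2 fold change of -0.15, adjusted p = 0.314 and SE 0.12 in edgeR, and -0.05 without control replicate 3).

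Of 6 meiosis and germ line genes, 2 were tested and 1 was lower. Rnf141, a gene known from spermatogenesis, had 434, 388, 576 and 474 CPM in control and 376, 343, 411 and 313 CPM in cKO oocytes. The ranges overlapped and the change was small (log2 fold change of -0.38, adjusted p = 0.0354 and SE 0.14 in edgeR). It was not called without control replicate 3 (-0.26, adjusted p = 0.0912) or cKO replicate 1 (-0.39, adjusted p = 0.0639), 2 (-0.34, adjusted p = 0.101) or 4 (-0.30, adjusted p = 0.128), nor by DESeq2 (-0.36, adjusted p = 0.0621). Rnf17, a Tudor-domain gene of the male germ line, had 10.9, 7.66, 8.94 and 12.8 CPM in control and 5.32, 7.65, 6.23 and 7.86 in cKO oocytes. It missed the threshold (log2 fold change of -0.57, adjusted p = 0.0522 and SE 0.23 in edgeR) and passed it without control replicate 2 (-0.69, adjusted p = 0.0215) or control replicate 3 (-0.61, adjusted p = 0.0480), with a minimum count of 30 (-0.57, adjusted p = 0.0442) and on protein-coding genes only (-0.65, adjusted p = 0.0322). Rnf212, a meiotic crossover gene, had 8 control and 3 cKO counts in all and was not tested. Of 19 members on no list, 7 were tested and 2, Trim10 and Trim80, were higher, with log2 fold changes of 1.53 and 1.22; they are named after their values were seen.

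Exon usage, the share of a gene's counts on each of its exons, could be tested for 19 members with at least 2 exons of enough counts, and 3 were called (diffSpliceDGE of edgeR, Simes p per gene with Benjamini-Hochberg adjustment). Over all protein-coding genes tested, 23.1% of 2391 were called. The members' count was 1 without control replicate 4, 2 without control replicate 1 or cKO replicate 2, and 4 without cKO replicate 1. In Rnf141, an alternative last exon of 713 bases (chromosome 7, 110830249 to 110830961) held 2.83%, 4.02%, 1.24% and 2.86% of the counts on the 2 tested exons in control libraries. The same exon held 0.533%, 0.436%, 0.367% and 0.843% in cKO libraries. Every cKO library was lower (adjusted p = 5.30e-06 in diffSpliceDGE), while 97.3% ± 1.14 and 99.5% ± 0.210 of counts (SD, n = 4) were on the main last exon.

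In Rnf138, an internal coding exon (chromosome 18, 21001957 to 21002169) held 5.31%, 6.70%, 9.64% and 9.19% in control and 4.21%, 3.28%, 4.23% and 4.42% in cKO libraries. The lowest control was above the highest cKO library (adjusted p = 0.0137 in diffSpliceDGE). Both of its tested exons gained counts, the last exon from 1611 to 6084 in all and the internal one from 129 to 256. With last exons left out, the Rnf138 log2 fold change was 0.92 with an adjusted p of 0.00231 in edgeR.

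In Trim30d, an internal coding exon (chromosome 7, 104487576 to 104488051) held 13.5%, 14.7%, 10.53% and 11.2% in control and 18.9%, 22.7%, 26.7% and 30.3% in cKO libraries. All cKO libraries were higher (adjusted p = 0.0318 in diffSpliceDGE). The counts behind this were few, with 48 on the internal exon in control against 63 in cKO, while the last exon went from 335 to 183. The lower counts of Trim30d were thus on its last exon and not on the internal one, and with last exons left out the log2 fold change was 0.32 with an adjusted p of 0.448 in edgeR. Of all member counts, 98.2% lay on last exons, against 85.5% of the counts on all matched exon IDs. An exon was taken as last if it ends any annotated transcript, also where it is first or internal in another. The member counts thus describe mainly such exons, which need not lie at the 3′ end of the main transcript.

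**Figure D4:**
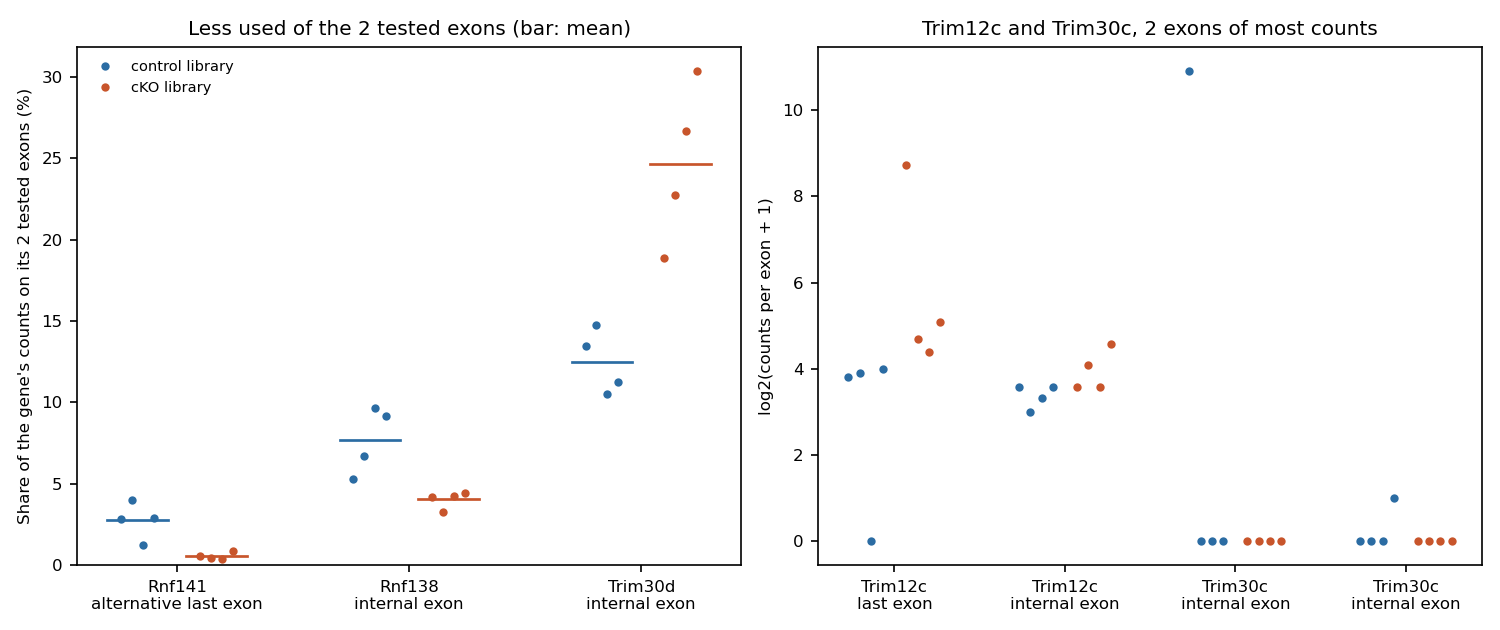
Left, the share in percent of a gene's counts that falls on the less used of its 2 tested exons, by control (blue) and cKO (red) library with bars for means, which is lower in cKO for Rnf141 and Rnf138 and higher for Trim30d. Right, log2 of counts + 1 on the most counted exons of Trim12c and Trim30c, where cKO replicate 1 has 419 counts on the Trim12c last exon and control replicate 1 has 1929 on 1 Trim30c exon.

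The sequence GGACT, a common form of the site at which m6A is placed, was counted on the sense strand of the longest coding transcript of each gene in GENCODE M21. Its median density was 0.775 per kilobase in the 20 higher members, 1.13 in the 14 lower and 0.982 in the 28 not called. Over tested protein-coding genes the medians were 0.988, 1.02 and 0.997 for the same calls. Median lengths of the members' transcripts were 3562, 4145 and 3179 bases. These counts describe letters in the annotation, and no methylation was measured.

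The 86 untested members did not pass the filter on low counts, which asks for counts in several libraries, so that Trim30c, with its counts in 1 library, is also among them. Their median countable length was 1571.5 bases against 3072.5 for tested members, and 15 of them and 0 of the tested had under 500 such bases. Of these 86, 21 had 0 counts in every library, 30 had 1 to 9 counts in all and 35 had 10 or more. A count of 0 allows up to 3 counts, 0.562 to 0.789 CPM in a library, and bears only on the countable bases. Amplified reads without molecular identifiers are not independent molecules, so this limit covers counting error only. In 12 of the 86 untested members, 9 Rnf and 3 Trim, the groups did not overlap. This was so for 7.14% of the 13900 untested protein-coding genes, and no test was made of the difference. For Rnf146 and Rnf207, the lowest control at 0.2218 CPM and the highest cKO library at 0.2216 CPM were parted by the scaling only. Of these 12, Trim66, the germ cell member of the TIF1 family, had the most cKO counts, 74 over the 4 cKO libraries against 7 in control, and Rnf220 had the most control counts, 58 against 25 in cKO. Trim28, the TIF1 corepressor that silences retroviral elements, had 18 counts in control and 26 in cKO. These untested members are named after their values were seen.

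Other parts of the ubiquitin pathway moved in both directions as well. Their called shares stand beside 30.4% higher and 23.5% lower over tested protein-coding genes, and no difference from these was tested. Of 84 RING ligases outside the 2 name groups, 50 were tested, 12 higher and 9 lower, with a median log2 fold change of 0.04. Mdm4, an inhibitor of p53, fell from 2034 ± 115 to 801 ± 36.8 CPM (log2 fold change of -1.34, adjusted p = 1.63e-07 and SE 0.11 in edgeR). Traf6, a ligase of Toll-like receptor signalling, rose from 4.87 ± 0.814 to 36.2 ± 8.09 CPM (2.89, adjusted p = 1.44e-07), and Topors, a ubiquitin and SUMO ligase, from 181 ± 24.2 to 435 ± 74.5 CPM (1.26, adjusted p = 4.72e-06). Of 26 HECT ligases, which carry ubiquitin on their own cysteine, 18 were tested, 5 higher and 5 lower (27.8% each), with a median of -0.05. Nedd4l, a regulator of sodium channels, fell from 32.9 ± 2.69 to 1.67 ± 0.704 CPM (-4.28, adjusted p = 1.02e-08), whereas its relative Nedd4 rose from 23.8 ± 5.62 to 74.8 ± 13.2 CPM (1.65, adjusted p = 4.96e-06). Hace1 rose from 2.26 ± 0.594 to 11.9 ± 3.66 CPM (2.39, adjusted p = 1.02e-05). Of 33 ubiquitin, E1 and E2 genes, 20 were tested, 9 higher and 2 lower, with a median of 0.31. The 3 of smallest p were the E2 genes Ube2q1 (1.96), Ube2v2 (1.64) and Ube2a (0.96), with adjusted p-values of 3.26e-05, 1.23e-05 and 0.000207.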

How the data were processed

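For each library the authors deposited a list of exon IDs with their counts, unnormalized. Per the submitters' processing notes STAR, HTSeq and mm10 were used. Program versions, counting options and the gene annotation were not given in the sources used here. Libraries were made with oligo-dT priming, template switching and tagmentation per the labels' protocols, which mark no strand, so overlapping genes on opposite strands cannot be told apart. Exon IDs were matched to GENCODE M21 (GRCm38), ignoring versions. Of 496288 IDs, 494230 (99.6%) matched, and the 2058 others held 0.252% of counts and were left out, as were 5 summary rows per file that name no exon.

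Counts were summed per gene, filtered with filterByExpr (minimum count 10), scaled by TMM and tested two-sided by quasi-likelihood in edgeR 4.0.16 (R 4.3.3), on all genes with group as the only term, with Benjamini-Hochberg adjustment. The standard error is the log2 fold change over the root of F. Exon usage was tested with diffSpliceDGE, and DESeq2 1.42.0 was an alternative. Countable bases are exon bases that no other exon ID covers. The tests were tried on simulated counts. In every group, library pairs differed by more than sampling noise.

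Members, lists and alternatives were chosen with earlier results of these data known. Marker sums without single genes were added after their values were seen. Named members are called ones with non-overlapping groups, a mean level of 10 CPM or more and a log2 fold change of at least 1 in size, the 6 of highest level, up to 2 of smallest p per list, those called for exon usage, and 3 per pathway list.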

Additional observations from a re-analysis of the deposited data

Results flagged for a closer look

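Among 62 groups of 4 libraries examined, of named members and of Trim12c and Trim30c, which were added after their values were seen, 5 held a library farther from its nearest neighbour, relative to the group's range, than Dixon's limit for 4 samples. Chance gives about 1 in 20 such groups. The flags of Trim12c and Trim30c cannot be set against that rate, since these genes were picked for a library that stood apart. In the control group, replicate 3 was the highest for Rnf185 at 1774 CPM (others 835 to 944) and for Rnf34 at 1037 CPM (others 801 to 817). Trim30c had 428 CPM in control replicate 1 and 0 to 0.250 in the other controls. In the cKO group, replicate 1 had 95.7 CPM of Trim12c (others 6.88 to 12.0), and replicate 3 had the lowest Rnf138 level, 296 CPM (others 339 to 344).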

How the results depend on the processing

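The counts of 20 higher and 14 lower members were 20 and 14 with RLE factors, 20 and 14 with upper-quartile factors, 24 and 14 with DESeq2, 28 and 18 with no filter, 16 and 13 with a minimum count of 30 and 19 and 19 on protein-coding genes only. Leaving out each replicate in turn gave 19 to 22 higher and 13 to 16 lower. With last exons left out, 26 members could be tested, 7 higher and 4 lower. In edgeR with this setting, Trim30d changed sign (0.32, adjusted p = 0.448) and Rnf139 came near 0 (0.0059, adjusted p = 0.990). That setting moved the median log2 fold change of all genes by 0.17, and protein-coding genes only by -0.09. Members called for exon usage, 3 as reported, were 5 of 95 tested with no filter, 1 of 6 with a minimum count of 30, and 1 to 4 with a replicate left out; the cause was not tested. With the replicate block, the counts were 20, 14 and 2. Deviations of libraries that share a number had correlations of -0.05 to 0.10, against -0.20 to 0.19 for other pairs of a control and a cKO library. Not every library correlated best with its own number. With 4 libraries per group, these correlations cannot show whether the numbers pair the samples. In every alternative that kept last exons and gave a value, 19 of the 20 higher and 11 of the 14 lower calls held. Depth limits the members near 3 counts, 0.562 to 0.789 CPM.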
